A study of Mus musculus with 18 samples.

Results

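Mammary tumours labelled iR2 were compared with mammary tumours labelled iFGFR1 across all named genes. The groups were taken from the tumour channel of each array, Wnt1_iR2 for 4 arrays and Wnt1_iFGFR1 for 4 arrays, which are 8 of the 18 arrays of the series. The other arrays are 6 labelled Wnt1 and 4 labelled Wnt1_iFGFR2, called Wnt1 and iFGFR2 here, and they serve as background. All 18 carry FVB and MMTV in their titles and primary mammary tumour as the tissue, so Wnt1 is shared by every group, and FVB is a mouse strain. MMTV is a viral promoter that drives transgenes in mammary epithelium. The labels do not expand iR2, iFGFR1 or iFGFR2, and no age, treatment or time is stated for either group. Separate animals are not named either, so a p-value here reflects only how far these samples vary, which may be technical variation. The series title asks how FGF receptors cooperate with Wnt-1 in forming such tumours.

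Wnt ligands bind Frizzled and LRP receptors, stabilise beta-catenin and maintain stem and basal cells of the mammary gland. FGF receptors are tyrosine kinases that signal mainly through the adaptor FRS2 to the ERK and PI3K pathways, and ERK in turn induces feedback genes of the Dusp, Spry and Etv families. FGFR1 and FGFR2 are 2 members of this family.

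Each value is a log2 ratio of tumour RNA (Cy5) to reference RNA of the whole mouse (Cy3), so a level of 0 means as much as in the reference and a difference of 1 between groups is a doubling. Neither the log base nor the direction of the ratio is stated in the deposited table. A level is not comparable between genes, because each is relative to the reference. Below, a difference is the iR2 mean minus the iFGFR1 mean, with its standard error (SE), and each adjusted p is from limma over 16887 genes. A gene is said to have been higher or lower where that p was under 0.05. In a bulk tumour sample, fewer cells of a type and less RNA per cell cannot be told apart.

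The arrays of the groups differed in how closely they resembled each other. Correlations over all genes were 0.933 to 0.962 among the iR2 arrays and 0.736 to 0.828 among the iFGFR1 arrays. Between the groups they were 0.735 to 0.817. The median SD of a gene was 0.174 within iR2, 0.376 within iFGFR1, 0.389 within iFGFR2 and 0.329 within Wnt1. Each title also carries a number whose meaning is not stated, and the 4 iR2 numbers are all above those of every other array. The number and the iR2 group therefore cannot be told apart. Fits with the number as a covariate are given below as a description. They extend to iR2 a trend that comes mainly from the other arrays. A call kept or lost in such a fit does not separate the number from the group.

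In all, 1968 of 16887 genes (11.7%) differed, 813 higher in iR2 (4.81%) and 1155 lower (6.84%). The shares of 4.81% and 6.84% are the background for the list counts below. The median difference over all genes was -0.05, with quartiles at -0.37 and 0.27. Of the 1968 genes, 1112 differed at least 2-fold and 138 at least 4-fold. An unadjusted p under 0.05 was reached by 4406 genes. The 4 arrays of each group did not overlap for 3751 genes (22.2%), with iR2 above for 1555 (9.21%) and below for 2196 (13%). Of the 1968 genes that differed, 1769 were among these. Where arrays of a called gene are said below not to overlap, that is a description and not further support. The split moved with the scaling, to 876 higher and 756 lower under quantile normalization. With the title number as a covariate 129 genes were higher and 136 lower, and 228 of these 265 were among the 1968. The count was 1172 without iR2 replicate 2 and 1277 without iR2 replicate 4.

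The difference depended on the level of a gene (the mean of the Wnt1 and iFGFR2 group means, which do not enter the difference but share in the spread behind the calls). Of 183 genes with a level under -4, 83 were lower in iR2 (45.4%) and 0 higher, and their median difference was -0.74. Between -3 and -2, 200 of 528 genes were lower (37.9%) and 12 higher, with a median of -0.73. From 0 to 1, which held 7582 genes, the median was -0.01. Between 2 and 3, 29 of 102 genes were higher (28.4%) and 6 lower, with a median of 0.37. Genes far below the reference in these tumours were thus further below it in iR2, and genes far above it were further above. After a smooth trend over level was subtracted, an alternative chosen after seeing the data, 907 genes were higher and 632 lower, and 1358 were among the 1968. Its counts for the gene lists are given beside some lists and, for the others it changed, near the end.

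**Figure D1:**
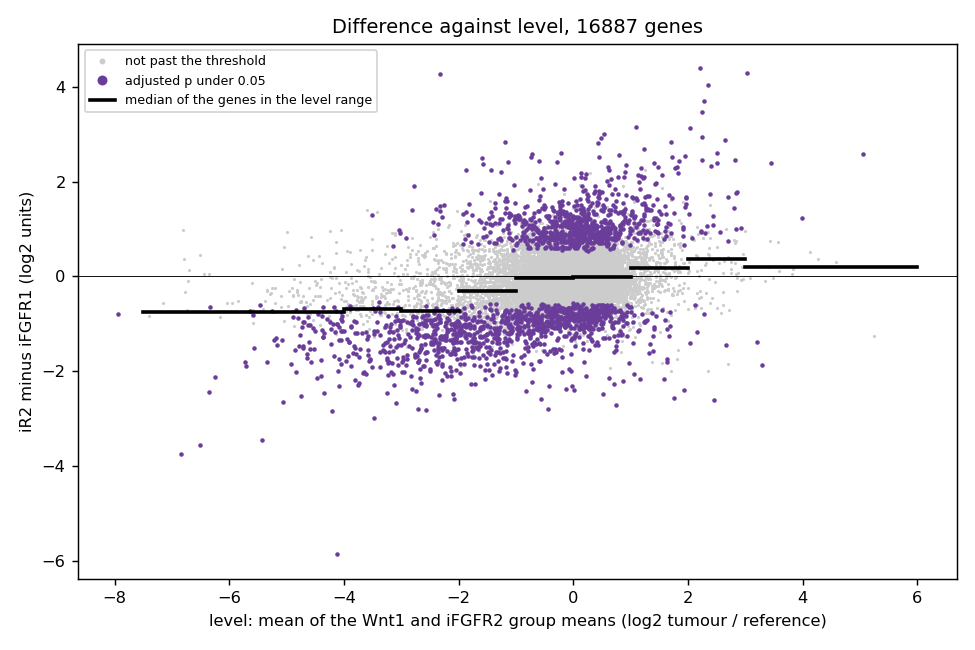
Each point is 1 of 16887 genes, with its level in the Wnt1 and iFGFR2 groups on the x axis (log2 tumour over reference) and the iR2 minus iFGFR1 difference on the y axis (log2 units). Black lines are medians of the genes in each level range, which lay at -0.74 below a level of -4 and at 0.37 between 2 and 3.

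Among the genes named in the labels, Fgfr1 was lower in iR2 than in iFGFR1. Its levels were 0.55, 0.64, 0.56 and 0.48 on the iR2 arrays and 2.15, 1.495, 1.32 and 1.42 on the iFGFR1 arrays. Every iR2 array lay below every iFGFR1 array, and the difference was -1.04 (SE 0.20, 2.05-fold, adjusted p = 0.00238). It was -0.55 with the title number as a covariate (adjusted p = 0.304). Fgfr2 stood at 0.14, -0.67, -0.25 and -0.05 in iR2 and at -0.49, -0.52, -1.02 and -0.30 in iFGFR1, and its difference of 0.37 did not pass (SE 0.27, adjusted p = 0.397). The Wnt1 gene stood at 1.24, 2.01, 1.19 and 1.59 in iR2 and at 1.60, 1.29, 1.58 and 1.21 in iFGFR1. These ranges overlap, and the difference was 0.09 (95% interval -0.49 to 0.67, adjusted p = 0.875). Fkbp1a, whose protein supplies the dimerising domain of many inducible receptors, differed by 0.19 (SE 0.26, adjusted p = 0.683). The sources used here do not place the array features relative to any transgene, so none of these values checks a label.

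Of 27 measured FGF receptors, ligands and adaptors, 2 were higher and 4 lower in iR2, with a median of -0.15. Fgf1, a ligand of all FGF receptors, stood at 0.88, 0.995, 1.02 and 1.001 in iR2 and at 0.16, -1.01, -2.10 and -0.37 in iFGFR1. The iR2 arrays lay within 0.14 of each other and above every iFGFR1 array, and the difference was 1.81 (SE 0.38, 3.49-fold, adjusted p = 0.00435). Gab1, a docking protein downstream of the receptors, was higher by 1.07 (SE 0.22, adjusted p = 0.00316). Klb, the co-receptor for endocrine FGFs, fell by 1.27 (SE 0.26, adjusted p = 0.00321), and by 0.68 once the level trend was subtracted (adjusted p = 0.0744). Fgf8 and Grb2 were the other lower members. The count of lower members was 2 without iFGFR1 replicate 3 or 4 and without iR2 replicate 2 or 4.

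Of 23 FGF and ERK feedback genes, 4 were lower and 1 was higher, with a median of -0.13. The list had no common direction, with 13 differences below 0 and 10 above. Hbegf, an EGF receptor ligand induced by ERK, stood at -0.75, -1.33, -1.53 and -1.15 in iR2 and at 0.59, 0.67, 1.47 and 1.44 in iFGFR1. The groups were separated by more than 1 log2 unit, and the difference was -2.23 (SE 0.30, 4.70-fold, adjusted p = 0.000149). With the title number as a covariate the difference was -2.97 (adjusted p = 0.003). Ier3, an early response gene of ERK, was lower by 1.04 (SE 0.26, adjusted p = 0.0117; a difference of -1.04), all 4 iR2 arrays below all 4 of iFGFR1. The ETS factor gene Etv1 differed by -1.41 (SE 0.36, adjusted p = 0.016), and its call ended without iFGFR1 replicate 4 or iR2 replicate 4 (highest adjusted p = 0.0664). Without either of these arrays 2 members of the list were lower. Of the 14 EGF receptor family members and ligands only Hbegf was lower (7.14%) and 0 were higher. Of 20 immediate early genes 2 were lower and 0 higher. Of all genes 6.84% were lower, so neither count stood far from the background.

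The 15 genes with the largest excess in iR2 were taken from the higher genes whose arrays did not overlap, passing over unnamed clones. Non-overlap was thus part of the choice. The genes encode a mix of secreted, membrane and metabolic proteins. Apod, which encodes a lipocalin that carries small lipids, stood at 2.26, 2.07, 2.84 and 3.04 in iR2 and at -1.28, -1.69, -2.29 and -2.08 in iFGFR1. The gap between the groups exceeded 3 log2 units, and the difference was 4.39 (SE 0.72, 20.9-fold, adjusted p = 0.000719). The cartilage-associated membrane proteoglycan gene Snorc stood at 3.502, 3.85, 4.10 and 3.44 against -0.74, -0.09, -1.06 and -0.40, a difference of 4.30 (SE 0.56, adjusted p = 0.000131). Fbp1, which encodes a gluconeogenic enzyme, stood at -1.93, -1.45, -0.98 and -1.32 in iR2 and at -5.89, -5.68, -5.77 and -5.38 in iFGFR1. Both groups lay below the reference, and the difference was 4.26 (SE 0.87, adjusted p = 0.00351).

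Mgp, which encodes a matrix inhibitor of calcification, stood at 3.42, 2.21, 2.37 and 3.35 in iR2 and at -0.29, -0.63, -1.12 and -0.47 in iFGFR1, a difference of 3.47 (SE 0.52, adjusted p = 0.00034). The urea transporter gene Slc14a1 was higher by 3.15 (SE 0.46), and its 2 features differed by 3.60 and 2.69. Dynap was higher by 3.699 (SE 0.72), Slc16a11 by 3.13 (SE 0.59), Fam180a by 2.83 (SE 0.59) and Cttnbp2, which encodes a cortactin-binding protein, by 2.93 (SE 0.30). The adjusted p of these 5 genes lay between 1.05e-05 and 0.00407. Pdgfra, a growth factor receptor gene of fibroblasts, stood at -0.80, -0.999, -0.55 and -0.62 in iR2 and at -3.55, -3.83, -3.62 and -3.32 in iFGFR1. Each group kept within 0.6 log2 units, and the difference was 2.84 (SE 0.31, 7.16-fold, adjusted p = 1.81e-05). Id4, a helix-loop-helix factor gene of basal mammary cells, was higher by 2.88 (SE 0.42, adjusted p = 0.000273). Kansl1l differed by 3.003 (SE 0.87, adjusted p = 0.0302), where iFGFR1 replicate 3 stood at -6.80 and the other 3 iFGFR1 arrays between -1.46 and -0.21. Its call ended without any 1 of the 4 iR2 arrays (highest adjusted p = 0.0689) and in a fit of the 8 compared arrays alone.

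**Figure D2:**
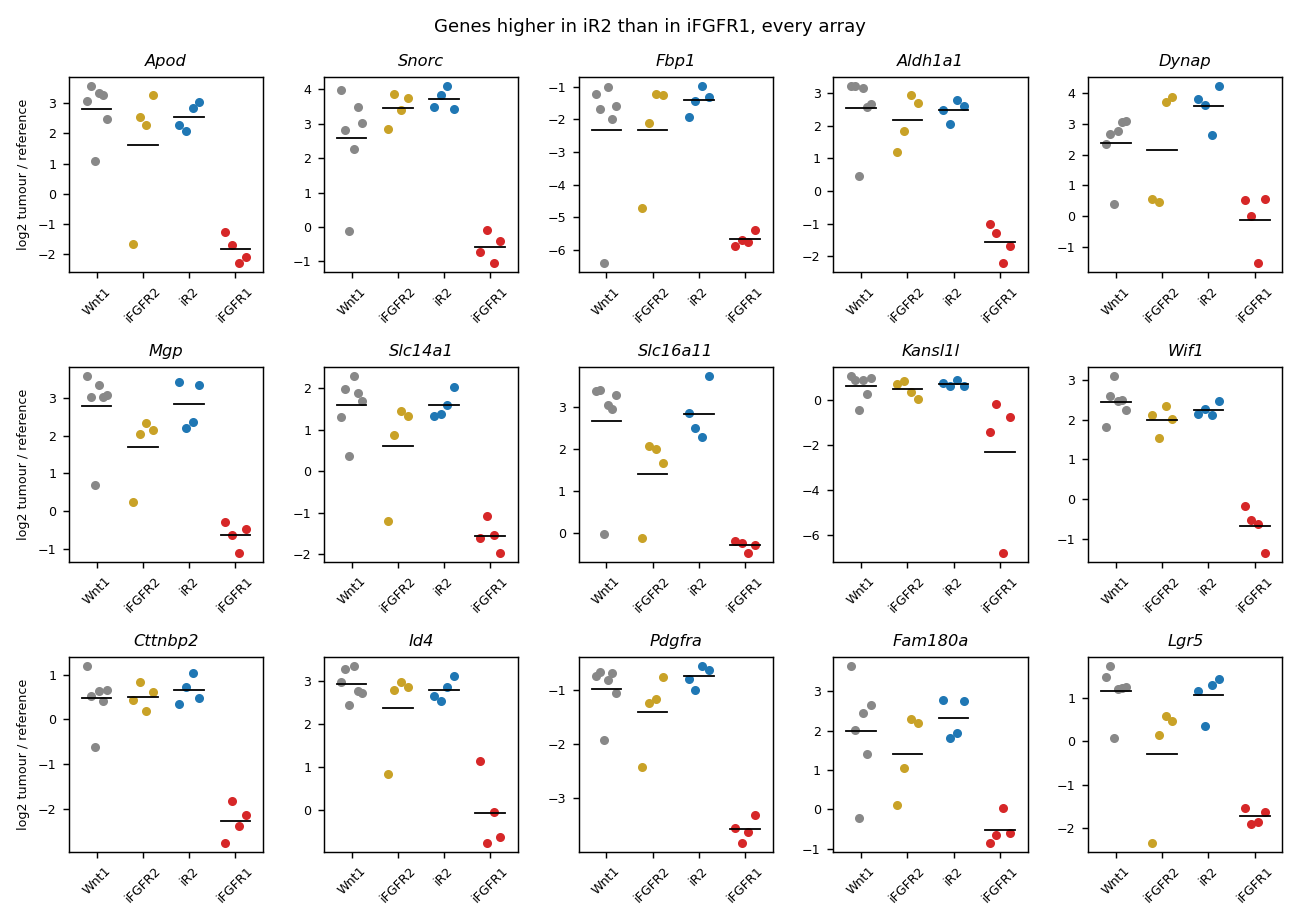
Levels of 15 genes higher in iR2 on every array (y axis, log2 tumour over reference, with a scale of its own for each gene), where points are arrays and black lines are group means. The genes were chosen so that all 4 iR2 arrays (blue) lie above all 4 iFGFR1 arrays (red), as for Apod at 2.07 to 3.04 against -2.29 to -1.28.

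The Wnt1 and iFGFR2 arrays do not enter the difference, but they share in the estimate of the spread behind the calls that chose these 15 genes. Their levels are given as a description. On 5 of 6 Wnt1 arrays and 2 of 4 iFGFR2 arrays, 0 of the 15 levels were nearer the iFGFR1 mean than the iR2 mean. The exceptions were Wnt1 replicate 3 with 7 of 15, iFGFR2 replicate 1 with 10 and iFGFR2 replicate 2 with 1. Apod stood at -1.66 on iFGFR2 replicate 1 and between 2.29 and 3.27 on the other 3 arrays of that group. Fbp1 stood at -6.41 on Wnt1 replicate 3 and between -1.996 and -1.004 on the other 5. Over all 813 genes higher in iR2, the Wnt1 group mean was nearer the iR2 mean for 563 (69.2%) and the iFGFR2 mean for 535 (65.8%). For all 16887 genes these shares were 55.7% and 51.8%. Of the 1155 lower genes the Wnt1 mean was nearer iR2 for 58.3%, but the iFGFR2 mean was nearer iFGFR1 for 62.8%. For the 15 largest lower genes, chosen in the same way, no array was wholly on the iR2 side. Levels nearer the iFGFR1 mean numbered 3 to 6 of 15 on the Wnt1 arrays and 4 to 8 on the iFGFR2 arrays.

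Of the Wnt ligands, receptors and secreted antagonists, 3 of the antagonist genes had the largest differences. Wif1, which binds Wnt proteins outside the cell, stood at 2.15, 2.28, 2.13 and 2.49 in iR2 and at -0.18, -0.54, -0.64 and -1.37 in iFGFR1. The groups lay over 2 log2 units apart, and the difference was 2.94 (SE 0.27, 7.68-fold, adjusted p = 3.7e-06), or 3.23 with the title number as a covariate (adjusted p = 0.00262). Sfrp2, a secreted Frizzled-related protein, stood at -0.45, -0.78, 0.13 and -0.04 against -3.48, -3.09, -3.41 and -1.45, a difference of 2.57 (SE 0.41, adjusted p = 0.000529). Sostdc1, an antagonist of Wnt and BMP, was higher by 2.53 (SE 0.51, adjusted p = 0.003) and Dkk3 by 1.19 (SE 0.22, adjusted p = 0.00173), both with every iR2 array above every iFGFR1 array. Dkk1, which blocks LRP receptors, went the other way and was lower by 1.64 (SE 0.39, adjusted p = 0.00995; a difference of -1.64). Of the ligands Wnt5a and Wnt5b were higher and of the receptors Lrp5 was lower. That made 6 higher and 2 lower of 34 measured Wnt ligands, receptors and secreted antagonists, with a median of 0.07. The median was -0.13 without iFGFR1 replicate 1, 0.20 without iFGFR1 replicate 3 and -0.08 with the title number as a covariate, where 2 members were higher and 0 lower.

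Targets of Wnt signalling did not move as 1 group. Of 18 measured targets 4 were higher in iR2 and 2 lower, with a median of 0.22. Lgr5, a target and receptor of R-spondins that marks stem cells, stood at 1.16, 0.35, 1.30 and 1.44 in iR2 and at -1.54, -1.91, -1.87 and -1.64 in iFGFR1. The difference was 2.80 (SE 0.48, 6.97-fold, adjusted p = 0.000928), and the call ended with the title number as a covariate (2.22, adjusted p = 0.116). Tnfrsf19 was higher by 1.13 (SE 0.26, adjusted p = 0.00732). Axin2, a feedback inhibitor that is a common readout of the pathway, differed by -0.10 (SE 0.23, adjusted p = 0.827), and Ccnd1 by 0.10 (SE 0.27, adjusted p = 0.85). Both are outside the rule for named genes and were chosen after their values were seen. Nkd1, which restrains Dishevelled, was lower by 1.37 (SE 0.35, adjusted p = 0.0142; a difference of -1.37), a call that ended without iR2 replicate 1 (adjusted p = 0.0525). The stem cell surface gene Prom1 was lower, at 2.33, 2.70, 2.63 and 2.04 in iR2 against 3.56, 3.21, 3.87 and 3.52 (difference -1.11, adjusted p = 0.0119). The count of higher targets was 2 without iFGFR1 replicate 3 or 4 and without iR2 replicate 1 or 2.

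Of 18 genes of retinoid handling 3 were higher, all of them Aldh1a genes, and 0 were lower, with a median of -0.03. Aldh1a1, which makes retinoic acid from retinal, stood at 2.48, 2.06, 2.78 and 2.60 in iR2 and at -1.01, -1.28, -2.21 and -1.68 in iFGFR1. The difference was 4.03 (SE 0.49, 16.3-fold, adjusted p = 5.31e-05), and 3.84 with the title number as a covariate (adjusted p = 0.0162). Its relative Aldh1a7 stood at 1.34, 0.75, 1.43 and 1.32 against -0.60, -1.29, -1.62 and -2.35, a difference of 2.68 (SE 0.48, adjusted p = 0.00148). Aldh1a3, an isoform of luminal progenitors, was higher by 2.14 (SE 0.51, adjusted p = 0.00966). All 3 had every iR2 array above every iFGFR1 array. Features of such related genes can share RNA, and cross-hybridisation was not tested.

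Basal and myoepithelial genes were more often higher in iR2, 7 of 23 measured (30.4%) against 1 lower, with a median of 0.43. The basal keratin gene Krt14 stood at 2.21, 1.28, 0.95 and 2.32 in iR2 and at -0.07, -0.43, 0.40 and 0.11 in iFGFR1. All 4 iR2 arrays were above the highest iFGFR1 array, with a difference of 1.69 (SE 0.36, adjusted p = 0.00482). Cdh3, which encodes P-cadherin, was higher by 1.44 (SE 0.30, adjusted p = 0.00427). Krt17, a keratin of basal and stressed epithelium, was lower by 1.54 (SE 0.40, adjusted p = 0.0161; a difference of -1.54), a call that ended without iR2 replicate 2 (adjusted p = 0.0706). Not every basal marker differed. Trp63, the basal transcription factor gene, stood -0.23 apart (adjusted p = 0.684) and the contractile gene Acta2 0.36 (adjusted p = 0.471), both chosen after their values were seen. The count of higher members was 4 without iFGFR1 replicate 1 or 4, 3 without iR2 replicate 1 and 2 without iR2 replicate 4. With the title number as a covariate 0 were higher and 0 lower.

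Luminal genes showed no common direction, with 2 of 23 higher (8.7%), 2 lower (8.7%) and a median of 0.21. Of all genes 4.81% were higher and 6.84% lower. Tspan8, a tetraspanin of luminal cells, stood at 1.08, 1.56, 1.46 and 0.15 in iR2 and at -0.94, -1.19, -1.999 and -2.03 in iFGFR1. The difference was 2.60 (SE 0.36, 6.07-fold, adjusted p = 0.000184), and 3.47 with the title number as a covariate (adjusted p = 0.003). Cldn7, a claudin of tight junctions, was lower by 1.14 (SE 0.23, adjusted p = 0.00283; a difference of -1.14) and Cldn1 by 1.79 (SE 0.33, adjusted p = 0.00196; a difference of -1.79). They were the 2 lower members of 18 claudins and tight junction genes, of which 1 was higher. Of 14 hormone-sensing luminal genes 4 were lower and 0 higher. Prom1 is counted here, among the luminal genes and among the Wnt targets. Stc2, a secreted glycoprotein gene, was lower by 1.74 (SE 0.36, adjusted p = 0.00422; a difference of -1.74), and the trefoil gene Tff3, at a level near -3, by 1.06 (adjusted p = 0.00483; a difference of -1.06) or 0.38 (a difference of -0.38) once the trend over level was subtracted (adjusted p = 0.266). After that subtraction 2 of the 14 were lower. Of 18 milk and alveolar genes 1 was lower (5.56%) and 0 higher, with a median of -0.05.

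Of 20 secretory epithelial genes 5 were lower and 2 higher. Pip, which encodes a prolactin-induced secreted protein, stood at -5.57, -5.51, -4.99 and -5.24 in iR2 and at -3.86, -3.36, -3.39 and -3.60 in iFGFR1. The difference was -1.77 (SE 0.27, adjusted p = 0.0004), and -1.02 after the trend over level was subtracted (adjusted p = 0.0197). The peroxisomal oxidase gene Acox2 was lower by 1.84 (SE 0.36, adjusted p = 0.00279; a difference of -1.84). With the trend subtracted, 3 members of the list were lower and 1 higher.

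Among the lower genes chosen by the same rule of no overlap, Klk7 had the largest difference. This gene of a protease that sheds cornified cells stood at -4.89, -5.66, -5.68 and -2.70 in iR2 and at 2.22, -0.10, 1.15 and 1.24 in iFGFR1. Every iR2 array lay below every iFGFR1 array, with iR2 replicate 4 the highest of its group, and the difference was -5.86 (SE 0.86, 58.1-fold, adjusted p = 0.00029). In the Wnt1 group it stood between -4.99 and -4.67 on 5 arrays and at -0.08 on replicate 3. Its relatives Klk10 and Klk5 were lower by 2.14 (SE 0.28, adjusted p = 0.000131; a difference of -2.14) and 1.99 (SE 0.27, adjusted p = 0.000159; a difference of -1.99).

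Other genes of cornifying epithelium were lower as well. The keratinocyte gene Krtdap stood at -4.28, -5.02, -4.70 and -3.14 in iR2 and at 0.40, -2.75, -1.25 and -1.63 in iFGFR1, a difference of -2.98 (SE 0.48, adjusted p = 0.000641). Lgals7, a galectin gene of stratified epithelium, stood at 0.02, -0.29, -0.59 and 0.00 against 1.99, 2.30, 1.81 and 1.42, a difference of -2.09 (SE 0.29, adjusted p = 0.000215). Of 25 measured squamous keratinocyte genes 8 were lower (32%) and 0 higher, with a median of -0.51. In 7 of the 8, all but Calm4, every iR2 array was below every iFGFR1 array. Of all 1968 genes that differed, 1769 had arrays that did not overlap. The median was -0.32 without iFGFR1 replicate 4 and -0.80 without iR2 replicate 4, and -0.28 after the trend over level was subtracted, where 7 were lower. A fit with the title number as a covariate left 3 lower. Differentiation genes of the epidermis did not all follow. Lor differed by 0.06 (SE 0.56, adjusted p = 0.965), Krt10 by 0.35 (SE 0.36, adjusted p = 0.586) and Krt6b by 1.33 (SE 0.45, adjusted p = 0.0593), 3 genes chosen after their values were seen. Outside the list, the keratin genes Krt76 and Krt27 were lower by 2.58 (SE 0.31, adjusted p = 5.26e-05; a difference of -2.58) and 2.80 (SE 0.60, adjusted p = 0.00483; a difference of -2.80), and the cornification gene Crct1 by 2.64 (SE 0.28, adjusted p = 1.73e-05; a difference of -2.64).

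Among the remaining large differences, Tslp, an epithelial cytokine gene that activates dendritic cells, stood at -0.35, -0.34, -0.40 and -0.33 in iR2 and at 2.10, 1.24, 3.67 and 2.77 in iFGFR1. The iR2 arrays lay within 0.07 of each other while iFGFR1 spread over more than 2 log2 units, and the difference was -2.80 (SE 0.43, adjusted p = 0.000401). No array of the Wnt1 or iFGFR2 groups exceeded 0.38. Chil3, a chitinase-like gene of activated macrophages, stood at -1.02, -0.11, -0.32 and -0.46 against 1.69, 3.52, 1.92 and 1.79 (difference -2.71, SE 0.82, adjusted p = 0.0369), and the call ended without any 1 of the 8 compared arrays (highest adjusted p = 0.0947). Chrna10, a nicotinic receptor subunit gene, differed by -2.60 (SE 0.74, adjusted p = 0.0274), and the call ended without iFGFR1 replicate 1 or 2 or any 1 of the iR2 arrays (highest adjusted p = 0.0735). Cps1, which encodes the first enzyme of the urea cycle, was far below the reference in every group. It stood at -8.37, -8.89, -8.52 and -8.50 in iR2 and at -5.09, -4.37, -5.07 and -5.59 in iFGFR1. The difference was -3.54 (SE 0.31, adjusted p = 3.7e-06), and -2.63 after the trend over level was subtracted (adjusted p = 7.05e-05). App was lower by 2.85 (SE 0.29; a difference of -2.85), Grik1 by 2.81 (SE 0.45; a difference of -2.81), Isx by 2.66 (SE 0.25; a difference of -2.66) and Aqp8 by 2.58 (SE 0.47; a difference of -2.58), with group means under -3 in iR2. On iFGFR1 replicate 2 Aqp8 stood above the reference, at 0.50. Atp1b4 differed by -3.74 (SE 0.68, adjusted p = 0.00166), with iFGFR1 replicate 4 at -1.66 and the other 3 arrays of that group between -6.53 and -5.97.

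**Figure D3:**
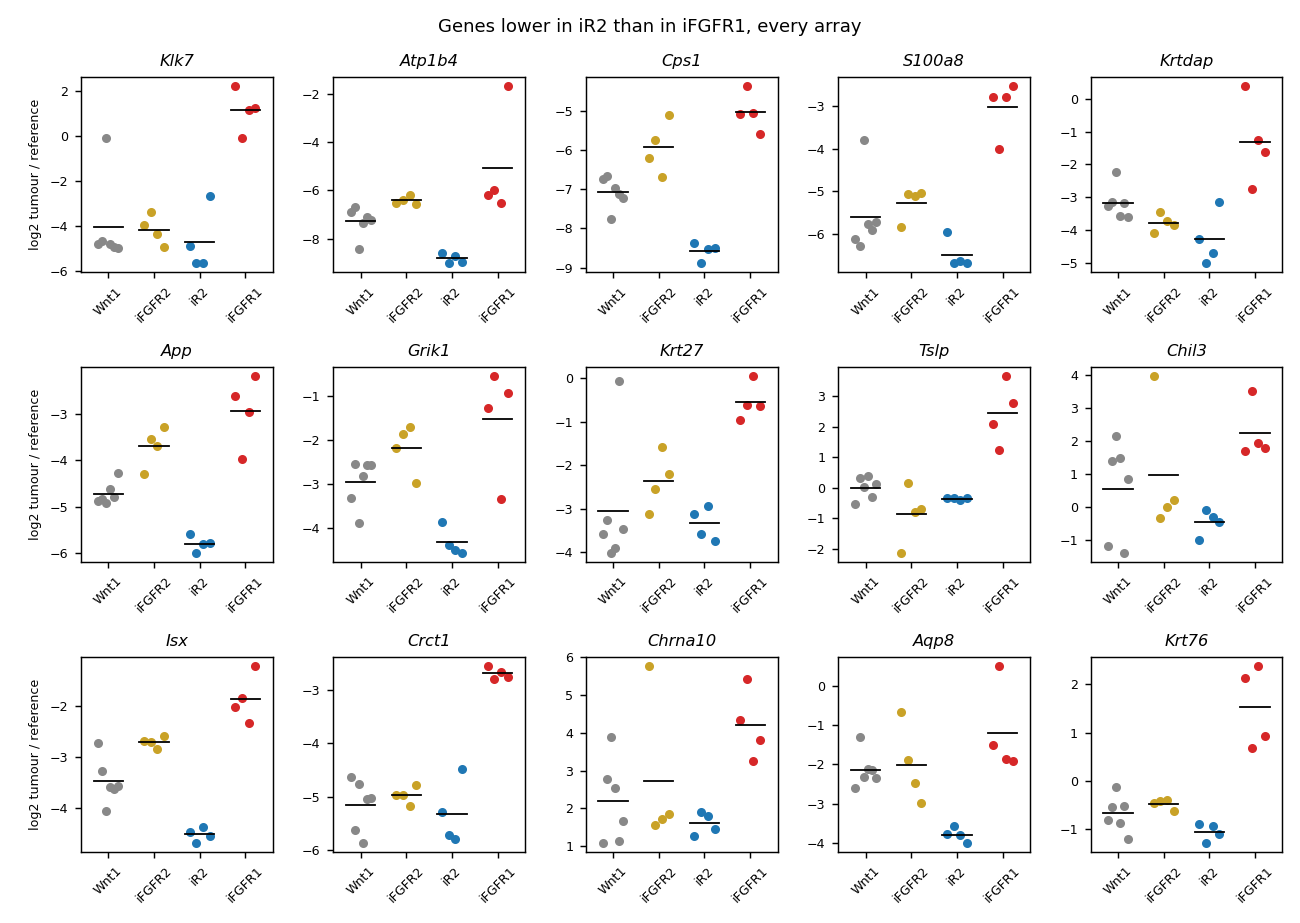
Levels of 15 genes lower in iR2 on every array (y axis, log2 tumour over reference, with a scale of its own for each gene), where points are arrays and black lines are group means. The genes were chosen so that all 4 iR2 arrays (blue) lie below all 4 iFGFR1 arrays (red). In the Klk7 panel 1 Wnt1 array at -0.08 also stands apart from the other 5.

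The factor ATF4 is made when the kinases that sense amino acid shortage or unfolded protein act on translation, and it turns on genes of amino acid uptake and synthesis. Of 23 measured ATF4 and amino acid stress genes, 13 were lower in iR2 (56.5%) and 0 higher, with a median of -0.84 and 21 of 23 differences below 0. The list median over members lay between -0.38 and -0.11 on the iR2 arrays and between 0.02 and 0.88 on the iFGFR1 arrays, which did not overlap. On Wnt1 arrays it lay between -0.33 and 0.16.

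Phgdh, the enzyme that commits a glycolytic intermediate to serine, stood at -1.35, -1.09, -0.98 and -1.23 in iR2 and at 1.21, 0.43, 0.72 and 0.80 in iFGFR1. The groups lay on either side of the reference, and the difference was -1.95 (SE 0.21, 3.87-fold, adjusted p = 1.7e-05). Mthfd2, a mitochondrial folate enzyme, stood at -0.74, -1.0, -1.10 and -0.49 against 0.88, 0.64, 0.63 and 0.90, a difference of -1.60 (SE 0.29, adjusted p = 0.00147). Chac1, which degrades glutathione, stood at -0.40, -1.17, -0.86 and -1.07 against 1.51, 0.02, 1.28 and 1.76, a difference of -2.01 (SE 0.31, adjusted p = 0.000468). Slc7a5, the light chain of a leucine transporter, stood at 0.60, 1.62, 0.76 and 0.85 against 2.80, 2.66, 2.26 and 2.37, a difference of -1.56 (SE 0.27, adjusted p = 0.00114). For each of the 4 genes every iR2 array was below every iFGFR1 array, and with the title number as a covariate only the call of Slc7a5 ended (adjusted p = 0.0992). The other lower members were Psat1, Slc7a3, Asns, Psph, Atf5, Cars, Shmt2, Cebpb and Eif4ebp1, by values from -0.83 to -2.01. Atf4 itself differed by -0.47 (SE 0.28, adjusted p = 0.296) and Ddit3, a stress factor gene downstream of it, by -0.09 (SE 0.35, adjusted p = 0.903), both chosen after their values were seen. With the title number as a covariate 3 members were lower. Of 20 endoplasmic reticulum stress genes 1 was lower (5.0%) and 0 higher, with a median of -0.05.

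Promoter sequence was available for 18 of the 23 genes in a RefSeq table of assembly GRCm38.p6, as windows of 300 bases from 250 before to 50 after the gene start. A gene can have several windows, and a match in any of them was counted. The amino acid response core, searched as TGATGNAA on both strands, was present in 7 of the 18 genes and in 3.52% of 13425 tested genes with a window. Of the 9 members that were lower and had a window, 2 held it, Asns and Chac1. The site TGACGTCA, a palindrome that many related factors bind, was in 0 of the 18 and in 2.92% of tested genes. The 2 stretches are shown because both genes were lower in iR2. They are 60 bases long, on the strand of the gene, with the match in capitals, and the Chac1 match lies on the opposite strand. Asns lies at chr6:7693199-7693258 (minus strand) and Chac1 at chr2:119351023-119351082 (plus strand).
Asns: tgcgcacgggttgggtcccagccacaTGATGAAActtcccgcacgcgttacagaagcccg
Chac1: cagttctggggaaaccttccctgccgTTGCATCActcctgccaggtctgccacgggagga
Asns, which makes asparagine and was chosen after its values were seen, was lower by 1.30 (SE 0.27, adjusted p = 0.00416; a difference of -1.30). A match is a description of letters and does not show that a factor bound there.

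Genes induced by low oxygen through HIF, with those of glycolysis, formed the other large lower group. Of 27 measured, 12 were lower (44.4%) and 0 higher, with a median of -0.80 and 24 of 27 differences below 0. The list median lay between -0.19 and 0.36 on the iR2 arrays and between 0.21 and 1.20 on the iFGFR1 arrays, so the arrays overlapped. On the Wnt1 arrays it lay between -0.105 and 0.40 and on the iFGFR2 arrays between -0.21 and 0.37, ranges close to that of iR2. Slc2a1, the glucose transporter gene, stood at 1.42, 0.03, 0.29 and 0.53 in iR2 and at 2.09, 1.79, 3.51 and 3.51 in iFGFR1. The difference was -2.15 (SE 0.43, 4.45-fold, adjusted p = 0.00295) and -3.48 with the title number as a covariate (adjusted p = 0.00359). Adm, which encodes the vasodilator adrenomedullin, stood at 0.20, -0.55, -0.50 and -0.90 against 1.03, 0.46, 2.63 and 3.38. Replicates 3 and 4 of iFGFR1 were the high ones, and the difference was -2.31 (SE 0.49, adjusted p = 0.00483). Car9, a carbonic anhydrase gene used as a hypoxia marker, stood at 0.94, 0.65, 0.64 and 0.18 against 2.38, 1.56, 2.15 and 2.23, a difference of -1.48 (SE 0.26, adjusted p = 0.00111). Pkm, the last kinase of glycolysis, was lower by 1.31 (SE 0.29, adjusted p = 0.00619; a difference of -1.31). Egln3, Bnip3, Vegfa, Pfkp, Ldha, Hk1, Pgam1 and Pfkl were the other lower members, by values from -0.78 to -2.06. With the title number as a covariate 10 members were lower, and 7 were lower without iR2 replicate 4. With the trend over level subtracted 8 were lower. The hypoxia core, ACGTG or GCGTG on either strand, was in 23 of the 25 list genes with a promoter window. All 12 of the lower members held it, but so did 58.0% of tested genes with a window.

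**Figure D4:**
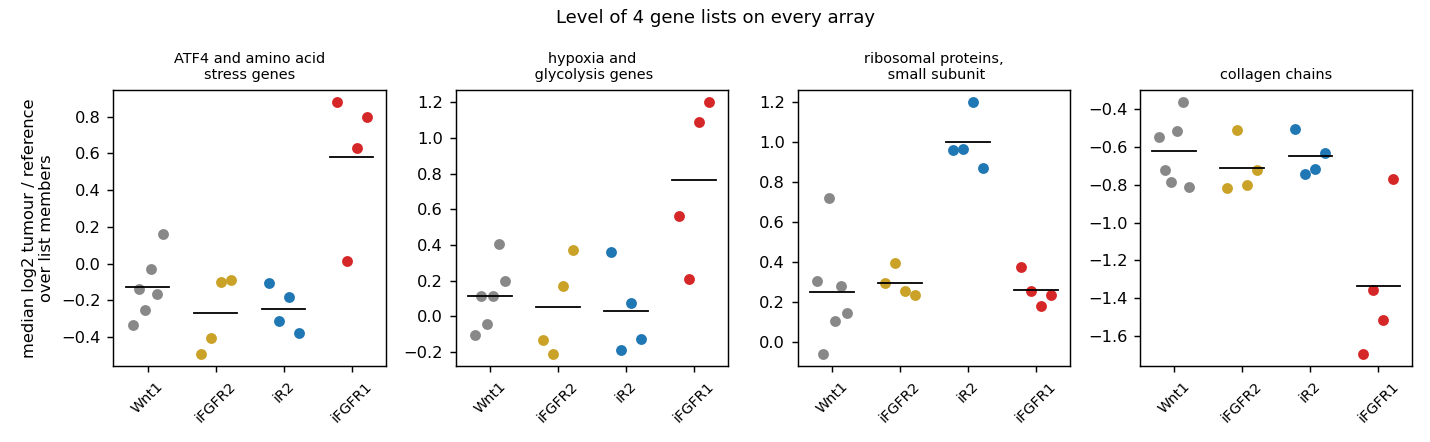
Median log2 ratio over the members of 4 gene lists on every array (y axis, log2 tumour over reference), where points are arrays and black lines are group means of those medians. On the iFGFR1 arrays the ATF4 list lies at 0.02 to 0.88 and on the iR2 arrays at -0.38 to -0.11, while small-subunit ribosomal proteins lie at 0.18 to 0.37 and 0.87 to 1.20.

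Interferon response genes encode antiviral proteins and are induced through STAT and IRF factors. Of 30 measured, 5 were lower in iR2 (16.7%) and 0 higher, with a median of -0.66 and 27 of 30 differences below 0, but the iFGFR1 arrays were far apart. The list median was between -0.43 and 0.43 on the iR2 arrays and between -0.64 and 1.56 on the iFGFR1 arrays. Isg15, a ubiquitin-like modifier gene, stood at -2.03, -1.20, -1.86 and -0.77 in iR2 and at 0.55, -0.90, 2.08 and 0.76 in iFGFR1. The groups overlapped because iFGFR1 replicate 2 lay within the iR2 range, and the difference was -2.09 (SE 0.46, adjusted p = 0.00562). Isg20 was lower by 1.501 (SE 0.34, adjusted p = 0.00681; a difference of -1.501). Bst2, which tethers virus particles to the cell, stood at -1.42, -0.86, -1.64 and -1.12 against 0.04, -1.13, 1.58 and 0.45. Its difference of -1.49 (SE 0.38, adjusted p = 0.0153) did not pass without iFGFR1 replicate 3 or iR2 replicate 3 (highest adjusted p = 0.0521). Only 1 of the 30 members, Psmb9, had every iR2 array below every iFGFR1 array, against 13% of all genes. Without iFGFR1 replicate 2, 15 members were lower with a median of -1.01. Without iFGFR1 replicate 3, 3 members were lower with a median of -0.34. Without iR2 replicate 1 or 3 the counts were 3 and 2, and with the title number as a covariate 0.

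The interferon-stimulated core was searched on both strands as GAAA, any 2 bases and GAAA again. It was in 12 of the 25 list genes with a promoter window and in 3.86% of tested genes with one. Of the 5 lower members, 2 held this core, Isg15 and Bst2, which are shown because both genes were lower in iR2. Isg15 lies at chr4:156200863-156200922 and Bst2 at chr8:71537569-71537628, both on the minus strand of GRCm38.p6, and capitals mark 3 overlapping matches in Isg15 and 2 in Bst2.
Isg15: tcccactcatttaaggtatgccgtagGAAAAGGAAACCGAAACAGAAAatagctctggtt
Bst2: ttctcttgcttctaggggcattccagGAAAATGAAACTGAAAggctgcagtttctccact
Of 14 MHC class I and antigen processing genes 1 was lower (7.14%) and 0 higher. MHC class II genes, which present antigen to helper T cells, had 2 of 9 higher, 0 lower and a median of 0.46. Cd74, their invariant chain, stood at 1.26, 2.34, 1.14 and 1.47 in iR2 and at -0.44, 0.08, -1.56 and -1.27 in iFGFR1. The groups did not overlap, and the difference was 2.35 (SE 0.34, 5.11-fold, adjusted p = 0.000251).

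Fewer than 1 in 2 ribosomal protein genes passed the test, and all that did were higher in iR2. Of 26 measured for the small subunit 12 were higher (46.2%), 0 lower and 25 differences were above 0, with a median of 0.66. Of 39 for the large subunit 11 were higher (28.2%), 0 lower and 36 were above 0, with a median of 0.44. The median over small-subunit members was 0.87 to 1.20 on the iR2 arrays, 0.18 to 0.37 on the iFGFR1 arrays and -0.06 to 0.72 on the Wnt1 arrays. Rps24 stood at 1.23, 1.35, 1.503 and 1.18 in iR2 and at 0.16, 0.09, 0.05 and 0.48 in iFGFR1, a difference of 1.12 (SE 0.19, 2.17-fold, adjusted p = 0.000925). Rpl19 stood at 1.25, 1.22, 1.49 and 1.27 against 0.07, 0.43, -0.38 and -0.38, a difference of 1.37 (SE 0.27, adjusted p = 0.00314). Rpl23a was higher by 1.23 (SE 0.24, adjusted p = 0.00286) and Rps28 by 0.95 (SE 0.20, adjusted p = 0.00402). Each of these 4 had every iR2 array above every iFGFR1 array. Without iFGFR1 replicate 3 the counts were 5 for the small and 7 for the large subunit, and without iR2 replicate 3 they were 5 and 4. Once the title number was a covariate, 2 and 3 were higher. The large-subunit count was also 7 without iFGFR1 replicate 4 or iR2 replicate 2. These genes have many processed pseudogenes, and features that also match one were not separated.

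Translation factors did not share that direction, with 3 of 42 higher (7.14%), 2 lower (4.76%) and a median of -0.04. Pabpc1, the poly(A)-binding protein gene, stood at 2.32, 2.49, 2.90 and 1.91 in iR2 and at 0.49, -0.10, 0.37 and 0.86 in iFGFR1. The difference was 2.001 (SE 0.31, 4.00-fold, adjusted p = 0.000494), all 4 iR2 arrays above. Eif4ebp1, an inhibitor of cap-dependent translation and an ATF4 target, stood at -0.74, -0.82, -0.64 and -1.23 against 0.81, -0.27, 0.76 and 0.84, a difference of -1.39 (SE 0.36, adjusted p = 0.0158). That call ended without iR2 replicate 4 (adjusted p = 0.0545).

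Collagen chains were higher in iR2 for 7 of 22 (31.8%) and lower for 0, with a median of 0.59, and their median over members did not overlap between the groups. Col16a1 stood at 1.11, 0.72, 0.72 and 1.21 in iR2 and at -0.10, -0.60, -0.75 and -0.40 in iFGFR1, a difference of 1.40 (SE 0.21, adjusted p = 0.000303). Col7a1, the anchoring fibril collagen beneath epithelium, was higher by 1.38 (SE 0.30, adjusted p = 0.00483) and Col4a1, of basement membranes, by 1.19 (SE 0.28, adjusted p = 0.00891). Col14a1 was higher by 1.33 (SE 0.27), but its 2 features differed by 2.11 and 0.56. Col1a1, the main fibrillar chain, differed by 0.01 (SE 0.26, adjusted p = 0.984) while Col1a2 was higher by 1.30 (SE 0.38, adjusted p = 0.033), a pair chosen after their values were seen. The count was 4 without iFGFR1 replicate 2, iR2 replicate 1 or iR2 replicate 2, and 2 with the title number as a covariate. Of 27 fibroblast genes 3 were higher (Mgp, Pdgfra and Fbln2) and 3 lower, with a median of 0.24. Tcf21 was among the lower ones, by 1.42 (SE 0.26, adjusted p = 0.00162; a difference of -1.42). With the trend over level subtracted, 8 of the 27 were higher and 2 lower, and without iR2 replicate 4 only 1 was lower. Of 22 endothelial and pericyte genes 1 was lower (4.55%), the lymphatic receptor gene Lyve1 (difference -1.41, adjusted p = 0.00281), and 0 were higher.

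Markers of leukocytes differed by type. Of 20 neutrophil genes and attractants 8 were lower in iR2 (40.0%) and 0 higher, with a median of -0.80. S100a8, a calcium-binding alarmin gene of neutrophils, stood at -5.94, -6.68, -6.63 and -6.67 in iR2 and at -2.80, -4.01, -2.79 and -2.54 in iFGFR1. All values lay far below the reference, and the difference was -3.44 (SE 0.42, 10.9-fold, adjusted p = 5.31e-05). Its partner S100a9 was lower by 2.13 (SE 0.30, adjusted p = 0.00022; a difference of -2.13). The bactericidal gene Pglyrp1 stood at -0.72, -0.23, -0.05 and -1.34 against 1.32, 2.41, 2.05 and 1.56, a difference of -2.42 (SE 0.29, adjusted p = 5.31e-05). These 3 calls held with the trend over level subtracted, where S100a8 was lower by 2.59 (a difference of -2.59) and the list had 6 lower members and a median of -0.47. Mpo and Elane, granule enzyme genes, did not pass, at -0.41 (adjusted p = 0.212) and -0.36 (adjusted p = 0.318), nor did Lcn2 at -0.03 (adjusted p = 0.976). These 3 were chosen after their values were seen. Of the 20 genes 8 had a level under -2. A fit with the title number as a covariate gave 3 lower.

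Of 20 T and NK cell genes 4 were lower and 0 higher, with a median of -0.37. Cd3d, a chain of the T cell receptor complex, stood at -2.16, -2.33, -1.96 and -2.57 in iR2 and at -0.20, -0.99, -0.62 and -0.75 in iFGFR1, a difference of -1.62 (SE 0.24, adjusted p = 0.00028). The granzyme gene Gzma was lower by 1.93 (SE 0.33, adjusted p = 0.00101; a difference of -1.93). Of 23 macrophage genes 2 were higher (8.7%) and 0 lower, with a median of -0.06, where 4.81% of all genes were higher. The protease gene Ctss was higher by 0.97 (SE 0.24, adjusted p = 0.0105). Of 13 B and plasma cell genes 1 was higher (7.69%) and 1 lower (7.69%). The higher one, the coactivator gene Pou2af1, stood at 2.26, 1.48, 1.97 and 2.14 in iR2 and at -1.15, -0.43, -0.28 and -0.10 in iFGFR1, a difference of 2.45 (SE 0.50, adjusted p = 0.00351).

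In 3 further lists of metabolic genes, the members that passed the test were lower in iR2. Of 18 cholesterol synthesis genes 7 were lower (38.9%) and 0 higher, with a median of -0.57. Mvd, a decarboxylase of the mevalonate pathway, stood at -0.11, -0.40, -0.51 and -0.07 in iR2 and at 0.96, 0.34, 1.07 and 0.69 in iFGFR1, a difference of -1.04 (SE 0.21, adjusted p = 0.00339). Fdps was lower by 1.09 (SE 0.23, adjusted p = 0.00461; a difference of -1.09). The count of 7 was 2 without iFGFR1 replicate 1 or 3 or iR2 replicate 1 or 3, and 3 without iR2 replicate 2. No member (0 of 18) was lower once the title number was a covariate. Of 17 arginine and urea cycle enzymes 5 were lower and 0 higher, with a median of -0.51. Odc1, which makes the polyamine putrescine from ornithine, stood at -0.87, -1.55, -1.14 and -0.99 in iR2 and at 1.01, 0.14, 0.81 and 0.06 in iFGFR1, a difference of -1.64 (SE 0.26, adjusted p = 0.000505). Arginase 1, encoded by Arg1, was lower by 1.71 (SE 0.39, adjusted p = 0.00744; a difference of -1.71), and the spermidine synthase gene Srm by 0.98 (SE 0.22, adjusted p = 0.00731; a difference of -0.98). Of 48 oxidative phosphorylation subunits 6 were lower and 0 higher, with a median of -0.26, which was -0.03 after the trend over level was subtracted (4 lower). Its share of 12.5% lower stood beside 16.6% for all genes with a level between -2 and -1, where the median level of the list lies (-1.05). Atp5k, a subunit of ATP synthase, stood at -2.43, -2.11, -2.54 and -2.13 against -0.50, -0.53, -0.52 and -0.34, a difference of -1.83 (SE 0.27, adjusted p = 0.000269).

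Few proliferation genes passed the test. Of 28 mitotic genes 3 were lower (10.7%) and 0 higher, with a median of -0.28, and of 26 DNA replication genes 3 were lower (11.5%) and 0 higher, with a median of -0.44. Over all genes 6.84% were lower. The mitotic count was 1 without iFGFR1 replicate 3 or iR2 replicate 3. The replication count was 8 without iFGFR1 replicate 2, and 1 without iFGFR1 replicate 1 or 3 or iR2 replicate 1. For 21 of 28 and 22 of 26 the difference was below 0. Every iR2 array lay below every iFGFR1 array for 9 of 28 mitotic and 6 of 26 replication genes, and for 13% of all genes. The mitotic list median was 0.24 to 0.36 on the iR2 arrays and 0.47 to 0.85 on the iFGFR1 arrays, without overlap. The replication list median was 0.23 to 0.31 and 0.27 to 0.89, which overlapped. Ube2c, which drives exit from mitosis, stood at -0.03, -0.26, -0.14 and -0.33 in iR2 and at 0.55, 0.56, 0.99 and 1.46 in iFGFR1, a difference of -1.08 (SE 0.23, adjusted p = 0.00484). Ccne1, a cyclin of the entry into S phase, was lower by 0.93 (SE 0.22, adjusted p = 0.00997; a difference of -0.93). Of 17 p53 target genes 2 were higher (11.8%) and 1 lower (5.88%). Trp53inp1 stood at 0.69, 0.71, 0.77 and 0.54 against -0.47, -0.49, -0.38 and -0.68, a difference of 1.18 (SE 0.21, adjusted p = 0.00152).

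Signalling lists beyond Wnt and FGF had few calls. Of 23 BMP and TGF-beta genes 2 were higher (8.7%), Id4 among them, and 0 lower. Of 19 Notch genes 2 were higher (10.5%) and 1 lower (5.26%), where 4.81% and 6.84% of all genes were. The receptor gene Notch4 stood at -0.23, -0.61, -0.95 and -1.48 in iR2 and at 0.74, 1.21, -0.04 and 0.70 in iFGFR1, a difference of -1.47 (SE 0.28, adjusted p = 0.00215). The ligand gene Dll1 was higher by 1.23 (SE 0.31, adjusted p = 0.0139), a call that ended without iR2 replicate 4 (adjusted p = 0.06).

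Markers of muscle, fat, blood and nerve mostly lay far below the reference, in the level range where genes were more often lower in iR2. Of 16 skeletal muscle genes, all with a level under -2, 2 were lower and 0 higher with a median of -0.21, but after the trend over level was subtracted 4 were higher, 0 lower and the median was 0.60. Of 19 adipocyte genes 3 were lower and 1 higher, the glucose transporter gene Slc2a4 by 1.36 (SE 0.24, adjusted p = 0.00113). The adipocyte median of -0.25 became 0.38 after the subtraction, with 0 lower and 1 higher. The count of lower adipocyte genes was 1 without iFGFR1 replicate 2 or iR2 replicate 1 or 3, and 0 without iR2 replicate 2 or 4. Of 8 erythroid genes 3 were lower and 0 higher, against 1 lower and 2 higher after it, and of 11 nerve and Schwann cell genes 2 were lower and 0 higher, against 0 and 1. The counts in these 4 lists therefore depended on that step, and the sign of the median turned for muscle and fat. The erythroid median stayed below 0, at -0.76 before the step and -0.14 after it. That of the nerve and Schwann cell genes was -0.37 before and -0.33 after. The part such cells play in the other differences was not tested.

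Subtraction of the trend over level also changed counts in lists for which it has not been given. Among signalling genes, 3 FGF receptors, ligands and adaptors were then higher and 2 lower, and 0 FGF and ERK feedback genes higher and 5 lower. Of the Wnt ligands, receptors and antagonists 5 were higher and 1 lower, of the Wnt targets 3 and 2, and of the BMP and TGF-beta genes 4 and 0. Of the immediate early genes 1 was lower. Among epithelial genes, 6 basal genes were higher and 1 lower, 0 claudins and tight junction genes higher and 2 lower, and 4 retinoid genes higher with a list median of 0.10. In the stress and metabolic lists, 11 ATF4 genes, 4 interferon genes and 5 cholesterol genes were lower, as were 4 arginine and urea cycle enzymes with 1 higher. Of the small-subunit ribosomal proteins 11 were higher, and of the translation factors 3 were higher and 0 lower. In the remaining lists, 6 collagen chains, 1 MHC class II gene and 1 B cell gene were higher with 0 lower, endothelial genes had 1 in each direction and a median of 0.18, 4 DNA replication genes were lower, and p53 targets had 2 higher and 0 lower.

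**Figure D5:**
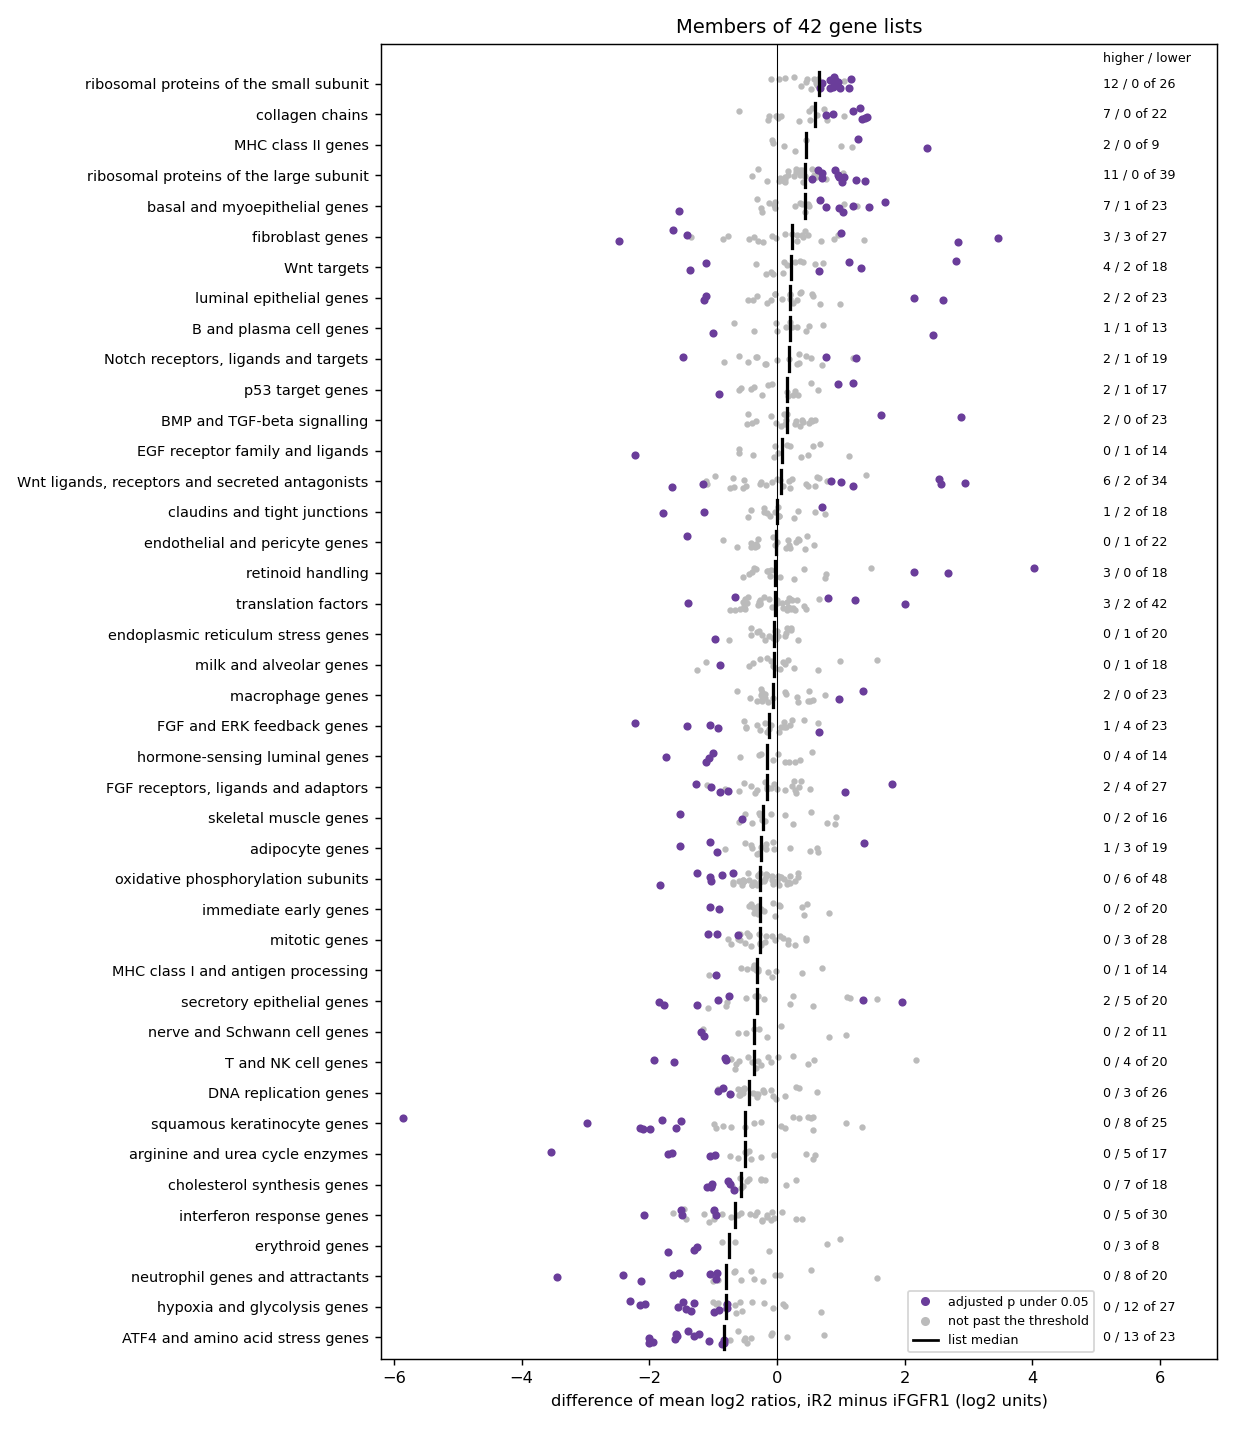
Differences between iR2 and iFGFR1 (x axis, log2 units) for the measured members of 42 gene lists, ordered by list median (black bars), with members at an adjusted p under 0.05 in purple. The ATF4 list has the lowest median (-0.84, 13 of 23 lower) and the small-subunit ribosomal proteins the highest (0.66, 12 of 26 higher).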

How the data were processed

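Arrays with 2 channels measured 18 primary mammary tumours of mice. Tumour RNA (column kit) carried Cy5 and whole-mouse reference RNA (TRIZOL) Cy3, per the labels. The authors deposited 1 table of ratios, read here as log2 values, for 22575 features. Its log base, centring and direction are not stated. The direction was taken from the dyes in the labels. For background correction and normalization no method is named in the labels. No cell was empty, and values ran from -9.03 to 7.57. Probe-level depth does not apply, and the number of arrays limits the precision.

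Features were named by the platform annotation, where 18658 had 1 symbol, 30 several and 3887 none. Features of a symbol were averaged to 16887 genes. Of 3917 features without a single symbol 102 passed. The contrast was fitted with limma 3.58.1 and R 4.3.3 (all 18 arrays, 4 groups, no covariate, Benjamini-Hochberg, threshold 0.05). In simulated data for this comparison (16887 genes, 50 changed of each size), 6% of genes changed by 0.5 log2 units, 46% by 1, 98% by 2 and 100% by 3 were recovered, with 5 calls among unchanged genes. The simulation drew independent normal noise with 1 SD per gene for all groups. In the data the median SD was 0.174 in iR2 and 0.376 in iFGFR1. Far fewer genes were changed than were called in the data, so these rates need not hold there.

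The members and the 42 gene lists (922 of 1001 entries measured) were chosen with earlier results of these data known. Some genes are in several lists, so the 922 entries are 890 genes and 1 call can count in several lists. Named genes are Wnt1, Fgfr1, Fgfr2 and Fkbp1a, the 15 largest called differences in each direction whose arrays do not overlap, passing over unnamed clones, and up to 4 called members of a list by smallest p. The nearest adjusted p on either side of the threshold were 0.0498 and 0.05. Replicates were numbered in accession order and pair nothing. Promoter windows are from RefSeq, GRCm38.p6. Alternatives covered normalization, weights, priors, filters, the title number, the arrays fitted and each array left out. An estimate of 1 variance per group and the subtraction of a lowess trend over level (span 0.2) were chosen after seeing the data.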

Additional observations from a re-analysis of the deposited data

Results flagged for a closer look

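A single array stood apart from the other 3 of its group in 21 of 296 groups of 4 tested over the named genes (Dixon's test, which chance exceeds in about 1 of 20 groups), in 19 genes. Of these arrays 7 were iFGFR1 replicate 2 and 4 were iFGFR1 replicate 4.

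On iFGFR1 replicate 2, Chil3 stood at 3.52 (others 1.69 to 1.92), Aqp8 at 0.50 (others -1.92 to -1.51), Plin1 at -1.45 (others -4.05 to -3.93), Cldn1 at 0.69 (others 1.86 to 2.07) and Pkm at 0.49 (others 1.29 to 1.37). Mb stood there at -2.40 (others -0.87 to -0.61) and Eif4ebp1 at -0.27 (others 0.76 to 0.84). On iFGFR1 replicate 4, Atp1b4 stood at -1.66 (others -6.53 to -5.97), Jag2 at -0.57, Nefl at -4.53 and Atp5k at -0.34. Ctss stood at -0.032 on iFGFR1 replicate 3 (others 0.80 to 0.96) and Ndufb5 at -0.03 on iFGFR1 replicate 1.

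Among the iR2 arrays, S100a8 stood at -5.94 and Pkm at 0.16 on replicate 1. Klk10 stood at -0.27, Aldh1a7 at 0.75 and Ctss at 1.82 on replicate 2, and Cldn7 at 0.49 on replicate 3. Lyve1 stood at -2.08 and Ccne1 at -0.91 on replicate 4. In none of these 19 genes was the cause tested.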

How the results depend on the processing

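The count of 1968 genes (813 higher, 1155 lower) was 789 (337 and 452) at a threshold of 0.01 and 265 (129 and 136) with the title number as a covariate. It was 3250 with 2108 lower when arrays were scaled to 1 median absolute deviation. Array weights gave 1260 higher, quantile normalization 756 lower and subtraction of the trend over level 632 lower. Leaving out 1 of 18 arrays gave 1172 to 2338 genes, 518 to 973 higher and 650 to 1365 lower. The higher count was 518, 522 and 527 without iR2 replicate 1, 2 and 3, and the lower count 650 and 716 without iR2 replicate 2 and 4. One variance per group gave 2456 genes. The threshold of 0.01, at which 40 named genes lost their call, is left out of the counts that follow. Of 145 called genes that are named, 41 kept their call under every other alternative that gave a value (29 or 30). With each array left out in turn 109 kept it. With the trend subtracted 121 did, with quantile normalization 129 and with the title number 43. The title numbers of iR2 lie outside those of all other arrays, so that fit extends a trend to them. Signs turned for Wnt1 (-0.032 with array weights, -0.119 with the trend subtracted, -0.076 to 0.196 with 1 array left out, lowest without iR2 replicate 2), Fkbp1a (-0.024 to 0.359 with 1 array left out, lowest without iFGFR1 replicate 2), Bpifa2 (0.013) and Ttn (0.152), the last pair with the trend subtracted. For these changes the cause was not tested. No paired analysis was possible because replicate numbers follow accession order. Feature signal over background is not in the table used here, so the precision of very low ratios is unknown.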
